A study of Mus musculus with 15 samples.

Results

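Chrna4, Atp2b3 and Gpr37 are 3 of the 24656 genes in an RNA sequencing table of mouse ovaries, and they were chosen by name because their levels are lower at 12 than at 6 months of age. Those levels therefore describe how the genes were picked, and no test of them against the 6-month ovaries is given. All 3 passed the filter on low values, which asked for 10 or more in 5 or more libraries, as did 17569 genes in total. The ovaries came from UM-HET3 mice, a genetically heterogeneous stock derived from a cross of inbred strains, and the animals of a group thus differ in genotype. At 6 months of age the mice were divided at random among control mice examined at 6 months, control mice kept to 12 months, and mice that received canagliflozin from 6 to 12 months and were also examined at 12 months. Canagliflozin inhibits SGLT2, a kidney transporter that takes filtered glucose back into the blood. Each group holds 5 libraries, each from polyadenylated RNA of 1 whole ovary of 1 mouse, and the dose is not given in the sources used here.

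Nicotinic acetylcholine receptors are ion channels that open when acetylcholine binds, and Chrna4 encodes an alpha subunit that in the brain assembles mainly with the beta subunit encoded by Chrnb2. Atp2b3 encodes a plasma membrane calcium pump, an enzyme that uses ATP to push calcium out of the cell. Gpr37 encodes a G protein-coupled receptor related in sequence to the endothelin receptors, for which prosaposin has been proposed as a ligand and which the ubiquitin ligase parkin can modify. All of them are best known from the nervous system. The ovary is supplied by autonomic nerves, and local acetylcholine signalling has been described in its granulosa cells.

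The library totals ran from 8472205 to 13629491 reads, with the shallowest library in the canagliflozin group. Genes of the mitochondrial genome took 2.72 to 3.19% of reads in the 6-month controls, 3.70 to 4.46% in the 12-month controls and 4.84 to 9.37% after canagliflozin. Markers of granulosa (10 of 10), theca (6 of 6) and oocyte (12 of 12) were all listed. So were those of fat cells (6 of 6) and red cells (5 of 5), so being listed says nothing about the tissue. Cyp11b1, an enzyme of the adrenal cortex, reached 88.1 and 346 in replicates 2 and 3 of the 6-month controls and at most 6.64 in the other 13 libraries. The other 3 adrenal markers were not analysed here, so a source of these reads was not tested, and results that rest on those libraries are also given without them. The extraction text in the labels names only the 12-month groups, and a difference in preparation between ages cannot be told apart from age.

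Chrna4 (ENSMUSG00000027577) lies on chromosome 2, Atp2b3 (ENSMUSG00000031376) on chromosome X and Gpr37 (ENSMUSG00000039904) on chromosome 6, and all are protein-coding with 0 annotated genes overlapping them. RefSeq promoter windows (build GRCm38.p6), 300 bases around the start, were found for 2 of the 3 genes, Chrna4 and Gpr37. The Chrna4 window is rich in G and C (74.3%, above 95.6% of 32851 promoters, whose median is 52.7%) and holds 33 CpG pairs, and the Gpr37 window has 62.7% and 21 CpG pairs (above 76.9% of promoters). Of the 250 bases before the start, 128 in the Chrna4 window and all 250 in the Gpr37 window lie in annotated exons of that gene. The values of both windows thus include exon sequence, and Gpr37 has no stretch outside exons to show. For Chrna4 the stretch farthest from the start and outside annotated exons is shown, with 1 match to the motif both windows share. It lies at chr2:181039306-181039427 on the minus strand, is 122 bases long and reads 5′ to 3′, with a GC box in capitals (the letters GGGCGG, here as their reverse complement).
Chrna4 promoter stretch: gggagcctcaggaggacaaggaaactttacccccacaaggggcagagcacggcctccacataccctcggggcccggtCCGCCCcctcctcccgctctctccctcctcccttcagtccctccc
Searched on both strands, GGGCGG occurs 3 times in the Chrna4 window and 2 times in the Gpr37 window, and in 35.7% of all promoters at least once. The letters CCAAT (in 37.4% of promoters), CACGTG (7.15%), CAGCTG (16.3%), TGACGTCA (1.79%), AAGGTCA (4.72%), AGATAA (11.2%) and TGTTTAC (3.65%) occur in neither window. A match or its absence describes these letters only.

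The level of each gene is given as size-factor-normalised reads, that is, reads divided by 1 factor per library, in the order of replicates 1 to 5. Chrna4 measured 258, 329, 366, 233 and 321 in the 6-month controls. It measured 63.0, 65.0, 83.5, 50.2 and 91.2 in the 12-month controls, and 35.3, 56.6, 35.5, 26.8 and 69.1 in the canagliflozin mice. The 6-month libraries stood clear of all others, the lowest at 2.56 times the highest 12-month value, while the ranges of the 12-month groups overlapped. The mean ± SD (n = 5) was 301 ± 54.6 at 6 months, 70.6 ± 16.5 in the 12-month controls (23.4% of the 6-month mean) and 44.6 ± 17.5 after canagliflozin (14.8%). In units of log2(value + 1), where the added 1 shrinks differences between low values, the estimated difference of 12-month from 6-month controls was -2.09 (SE 0.24). Against the 6-month controls the canagliflozin estimate was -2.79 (SE 0.24).

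Atp2b3 measured 191, 227, 157, 239 and 205 in the 6-month controls. It measured 80.2, 55.3, 39.5, 97.4 and 31.3 in the 12-month controls, and 56.0, 31.3, 17.8, 44.6 and 70.1 after canagliflozin. Again no 12-month library reached a 6-month one, the lowest 6-month value being 1.61 times the highest 12-month value, and the 12-month groups overlapped over most of their range. The 6-month controls were the most even (204 ± 32.2, coefficient of variation 15.8%), and the spread relative to the mean was wider in the 12-month controls (60.7 ± 27.7, 45.7%) and the canagliflozin mice (43.9 ± 20.5, 46.5%). The estimated log2 difference of 12-month from 6-month controls was -1.84 (SE 0.34), and that of canagliflozin from 6-month mice -2.32 (SE 0.34).

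Gpr37 measured 133, 169, 451, 357 and 228 in the 6-month controls. It measured 85.9, 73.7, 56.9, 69.7 and 66.0 in the 12-month controls, and 30.4, 47.7, 35.5, 27.8 and 80.1 after canagliflozin. The 6-month libraries were again above all 12-month libraries, the lowest at 1.54 times the highest 12-month value, and here the younger ovaries varied most. Within the 6-month group the highest library was 3.40 times the lowest (268 ± 133, coefficient of variation 49.8%), against 1.57 for Chrna4 and 1.52 for Atp2b3. The 12-month controls were close together (70.5 ± 10.7, 15.1%), while in the canagliflozin group (44.3 ± 21.4, 48.3%) replicate 5 stood above the other 4. The estimated log2 difference of 12-month from 6-month controls was -1.78 (SE 0.32), and that of canagliflozin from 6-month mice -2.53 (SE 0.32).

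**Figure D1:**
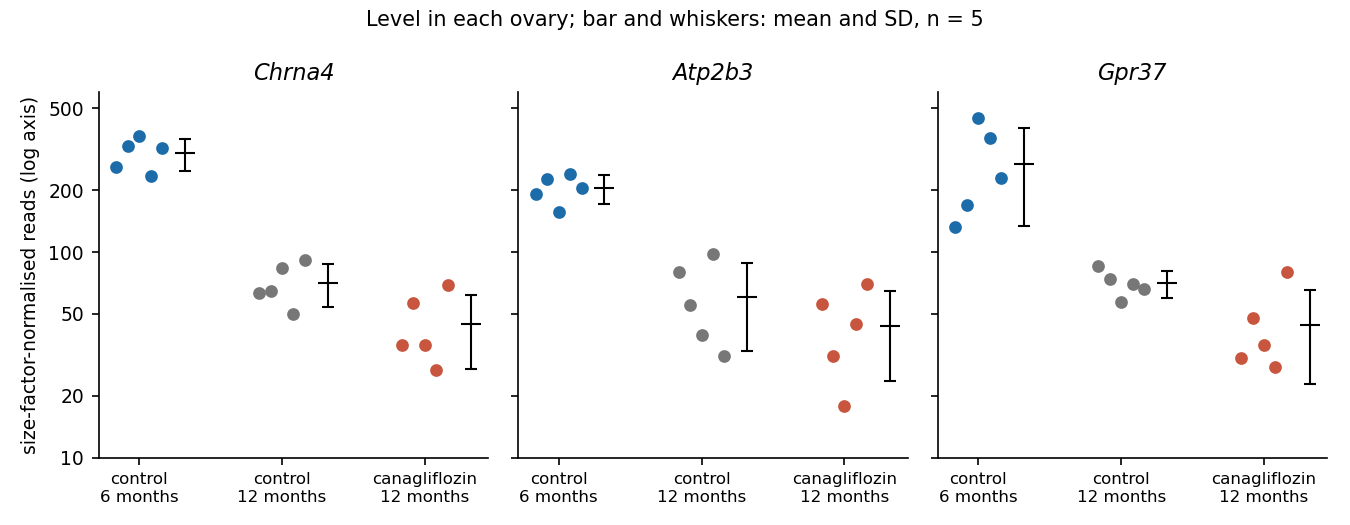
Size-factor-normalised reads (log axis) of Chrna4, Atp2b3 and Gpr37 in each ovary, by group, with the group mean and SD (n = 5) as a bar with whiskers beside the points. In each panel the 6-month controls lie above all 10 libraries of 12-month mice, and the 12-month groups overlap.

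For each of the 3 genes every 6-month library exceeded every library of both 12-month groups, a pattern seen in 6.07% of the genes tested. Between the control groups alone it held for 8.07%, and between canagliflozin and 6-month mice for 10.4%. Since the genes were chosen for this pattern, nothing is read from that count. The genes were not absent at 12 months: the recovered reads were at least 49 for Chrna4, 36 for Atp2b3 and 62 for Gpr37 in each 12-month control, and at least 27, 18 and 25 in each canagliflozin library. In whole ovaries, fewer cells of a type and less RNA per cell cannot be told apart. Compared per kilobase of merged exons, the 6-month mean was 60.0 for Chrna4, 44.1 for Gpr37 and 42.3 for Atp2b3, and in the 12-month controls it was 14.1, 11.6 and 12.6.

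Replicate 3 of the 6-month controls, the library with most Cyp11b1, had the highest Chrna4 and Gpr37 and the lowest Atp2b3 of its group. Without replicates 2 and 3, a choice made after seeing the data, the remaining 3 libraries averaged 271 ± 45.4 for Chrna4, 212 ± 24.5 for Atp2b3 and 239 ± 113 for Gpr37 (SD, n = 3). These means were 3.84, 3.49 and 3.40 times those of the 12-month controls, against 4.27, 3.36 and 3.80 with all libraries. The 3 libraries still lay above all 12-month libraries for each gene.

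Markers of 18 cell types fixed by name were summed in each library. The summed level of 11 neuron markers ran from 829 to 1080 in the 6-month controls, 670 to 1544 in the 12-month controls and 569 to 2156 after canagliflozin. Uchl1 and Tubb3 made up 76.3% of the 6-month neuron sum, and single neuron markers did not all move alike. Syt1, of synaptic vesicles, measured 122 ± 31.7, 66.5 ± 20.4 and 63.3 ± 35.2 in the 6-month controls, 12-month controls and canagliflozin mice (limma adjusted p = 0.115 with age and 0.0277 for canagliflozin against 6 months). Rbfox3, a neuronal splicing factor, measured 19.2 ± 9.22, 44.01 ± 24.7 and 43.8 ± 18.5 (adjusted p = 0.0917 and 0.0485). The 8 markers of Schwann cells and other glia (1204 to 2432, 1094 to 2156 and 1326 to 1835) likewise overlapped between all groups. No marker on these lists was at 0 in all libraries. Of the 18 sums, only those of the T and NK cell markers and of the B and plasma cell markers separated the 6-month controls from both 12-month groups, and they were lower at 6 months. The T and NK sum was 36.0 to 69.5 at 6 months, 105 to 202 in the 12-month controls and 74.1 to 231 after canagliflozin. The B and plasma sum was 35.1 to 61.8, 280 to 1056 and 487 to 931. A sum follows its most abundant markers. The fat cell sum overlapped between groups, yet 3 of 5 tested fat markers were called higher with age and 0 lower (60%, against 12.4% of all genes). Fabp4 went from 40.7 ± 26.1 to 238 ± 127 (limma adjusted p = 0.00416), while Plin1 measured 365 ± 96.4 and 321 ± 194 (0.554). The endothelial sum was higher at 6 months (4642 to 5304) than in the 12-month controls (3967 to 4500). It overlapped the canagliflozin group (3797 to 5876). Single endothelial markers did not move alike. Of 6 tested, 1 was called lower with age by limma (Cdh5, adjusted p = 0.0389; 16.7%, against 7.01% of all genes). Estimates were above 0 for 2 of the 6, with a median log2 difference of -0.02. Taken singly, 5 of 101 tested markers were higher in every 6-month library than in every 12-month one (4.95%, against 6.07% of all genes), the direction of the 3 genes, and 5 were lower in every one (4.95%, against 3.59%). The 5 higher ones were called lower with age by limma on the same libraries. They are named with their values seen, so those adjusted p values add nothing to the separation. The macrophage genes Adgre1 and Csf1r measured 151 to 202 and 566 to 875 at 6 months, and 33.0 to 116 and 176 to 512 in the 12-month controls (adjusted p = 0.00508 and 0.0105). They measured 30.4 to 52.1 and 171 to 335 after canagliflozin. The stromal genes Nr2f2 and Col1a1 (adjusted p = 0.00979 and 0.0452) and the smooth muscle gene Myh11 (0.0246) were the others. The 5 lower at 6 months were Inhba, Nr5a2, Jchain, Igkc and Igha. Of the 6 markers on each of the macrophage, stromal and smooth muscle lists, 4, 4 and 5 were not called with age. The rest (33.3%, 33.3% and 16.7%) were called lower, against 7.01% of all genes tested. With 6 markers per list, nothing is read from these shares. The macrophage gene Cd68 measured 280 ± 68.4 and 300 ± 132 in the 6-month and 12-month controls (limma adjusted p = 0.985). The sums of these lists overlapped between the groups. The part of these cell types in the levels of the 3 genes was not tested.

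Setting canagliflozin against 12-month controls asks whether the drug altered the genes in ovaries of the same age. All 3 estimates were below 0, away from the 6-month level, and none passed the test over all genes. By limma with adjustment over 17569 genes, 0 of the 3 were called, where 0.00569% of all genes passed (1 gene, higher) and 1616 had an unadjusted p under 0.05. By the other tools edgeR called 9 genes and DESeq2 63, and neither called any of the 3. None of the 3 separated all canagliflozin libraries from all 12-month controls, which 0.467% of genes did downward. The 12-month controls belong to the pattern by which the genes were chosen, so that these estimates are not free of that choice, and they share those controls with the age comparison.

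Chrna4 was lower in 3 canagliflozin libraries (replicates 1, 3 and 4) than in any 12-month control, and in 4 it was below the control median. The log2 difference was -0.70 (SE 0.24, 95% interval -1.21 to -0.19), or 0.615-fold (0.433 to 0.874), with a limma adjusted p of 0.462 and an exact two-sided permutation p of 0.0556 (n = 5 per group). Gpr37 was lower in 4 canagliflozin libraries (all but replicate 5) than in any 12-month control. Its log2 difference was -0.76 (SE 0.32, 95% interval -1.44 to -0.07), or 0.593-fold (0.369 to 0.952), with a limma adjusted p of 0.514 and an exact two-sided permutation p of 0.0476. Atp2b3 was lower in 1 canagliflozin library (replicate 3) than in any 12-month control, and the 2 sets of values were largely interleaved. Its log2 difference was -0.48 (SE 0.34, 95% interval -1.21 to 0.25), or 0.718-fold (0.433 to 1.19), with a limma adjusted p of 0.673 and an exact two-sided permutation p of 0.341. The 3 exact tests are given without adjustment. Like the intervals, they use the 12-month controls by which the genes were chosen, and no drug effect is read from them.

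Canagliflozin replicate 5 had the highest Chrna4, Atp2b3 and Gpr37 of its group and also its lowest share of mitochondrial reads (4.84%). It was singled out after its values were seen, and leaving out the highest library must enlarge each difference. Without it the log2 differences from the 12-month controls were -0.88, -0.68 and -0.99 (limma adjusted p = 0.128, 0.384 and 0.183). In the other direction, the estimate for Atp2b3 moved to -0.20 without canagliflozin replicate 3. Over the 15 fits without 1 library, the smallest differences were -0.54 for Chrna4 and -0.62 for Gpr37. The limma adjusted p reached 0.745 and 0.749 in such fits. The part of the mitochondrial share in these values was not tested.

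**Figure D2:**
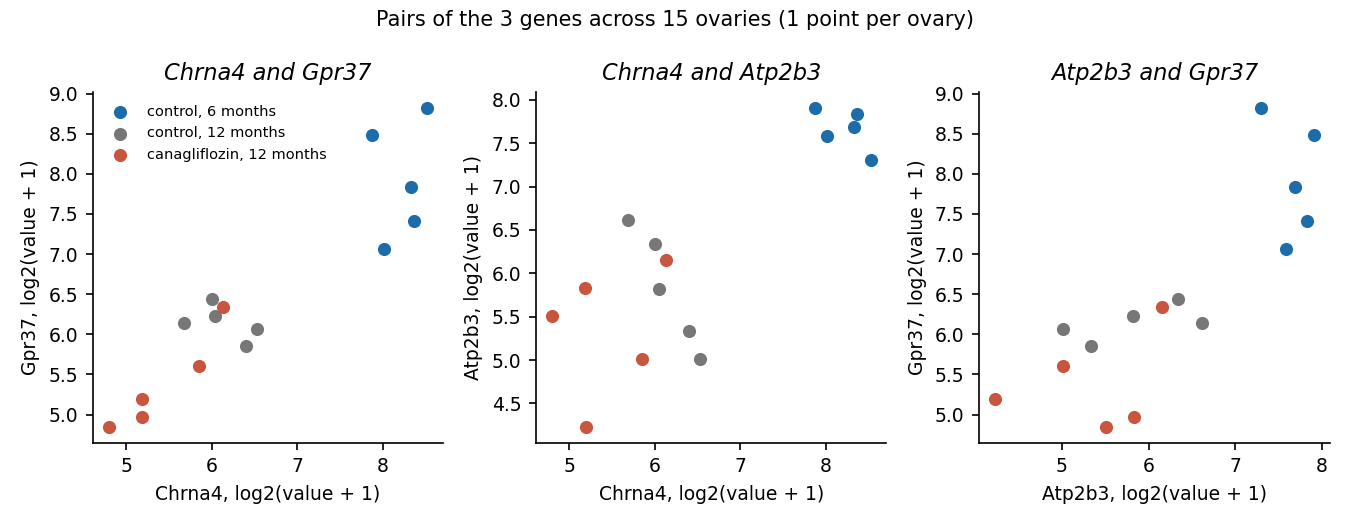
Levels of each pair of genes in 15 ovaries on the log2(value + 1) scale, 1 point per ovary, coloured by group. The 6-month controls form a cluster apart at the upper right of each panel, and among the 12-month libraries Chrna4 and Gpr37 run together more closely (r = 0.82) than Chrna4 and Atp2b3 (r = 0.12).

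Across the 15 ovaries the genes ran together, with Pearson r of log2(value + 1) of 0.92 for Chrna4 and Gpr37, 0.83 for Atp2b3 and Gpr37 and 0.82 for Chrna4 and Atp2b3 (Spearman rho 0.87, 0.82 and 0.61). These are descriptions, because the 6-month libraries form a separate cluster by the choice of the genes, and the points share library depth and scaling. Among the 10 libraries of 12-month mice, Chrna4 and Gpr37 had r = 0.82 (rho 0.64), and r = 0.57 without the 2 libraries farthest from the Chrna4 median. The 2 farthest libraries were always picked by the first-named gene of a pair only, and anew for each set of values. Over all 10 libraries of 12-month mice Atp2b3 had r = 0.50 with Gpr37 (rho 0.53) and 0.12 with Chrna4 (rho -0.12). With each group's mean removed, the 15 libraries gave r = 0.47 for Chrna4 and Gpr37, 0.19 for Atp2b3 and Gpr37 and -0.20 for Chrna4 and Atp2b3. Without the 2 farthest libraries these were 0.15, 0.16 and -0.54. Removing the group means lowered r for each pair, and for Chrna4 and Atp2b3 it turned the sign. For the 12-month libraries alone with their group means removed, r was 0.67 for Chrna4 and Gpr37, 0.38 for Atp2b3 and Gpr37 and -0.16 for Chrna4 and Atp2b3, and without the 2 farthest libraries 0.27, 0.38 and -0.55.

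Other genes had the same pattern. Among 14371 tested genes with proper symbols, 235 had r above 0.9 with the mean of the 3 standardised genes over 15 libraries. The closest was Kctd7 (r = 0.98), a potassium channel tetramerisation domain protein, at 210 ± 15.7 in the 6-month controls, 147 ± 3.35 in the 12-month controls and 138 ± 15.7 after canagliflozin. Nckap5 (r = 0.97) went from 386 ± 40.2 to 195 ± 13.3 and 144 ± 29.4. Next came Pitrm1, a mitochondrial peptidase, Nsf, an ATPase of vesicle fusion, and Ccdc8, each with r = 0.97. With group means removed, 8 genes had r above 0.8 with the mean of the 3. The first 5 were H3f3a-ps2 (0.87), Atp5c1-ps (0.86), Kctd7 (0.86), Glns-ps1 (0.84) and Egln3 (0.82), of which the names ending in -ps or -ps1 and -ps2 are pseudogenes that can share reads with their parent genes.

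Taken singly on the same deviations, the genes had different nearest neighbours. Those of Chrna4 were Ddx19b (r = 0.91), an RNA helicase, Cdnf (0.89), a neurotrophic factor, and Paics (0.88), an enzyme of purine synthesis. Those of Atp2b3 were F3, encoding tissue factor, Rcan2, an inhibitor of the calcium-dependent phosphatase calcineurin, and Dbn1, an actin-binding protein, each with r = 0.87. Those of Gpr37 were Ldah (0.79), Kcnk5 (0.78), a potassium channel, and Pnmal2 (0.78). With 14371 genes compared over 15 libraries, high values occur among many, and these are descriptions only.

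Related genes were taken from 8 lists by family or pathway. Of their 68 genes 56 were in the table and 40 passed the filter, 16 fell below it, and the rest were not analysed here. Between the control groups 5 of the 40 fell with age, 1 rose and 34 did not pass the test (15% called, against 12.4% of all genes tested, of which 7.01% lower and 5.4% higher). The median log2 difference was -0.12, against 0.00 over all genes. Between the 12-month groups 0 of the 40 were called by limma, edgeR or DESeq2, with a median drug difference of -0.13. Canagliflozin against 6-month controls gave 9 lower and 2 higher (27.5%, against 28.4% of all genes, of which 14.9% lower and 13.5% higher), with Atp2b1 among the higher. Shares so near the background are no result about these lists.

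Among nicotinic receptor subunits, 3 of the 8 listed genes other than Chrna4 passed the filter. None was called with age, against 12.4% of all genes tested. Chrnb2, the usual partner of Chrna4, measured 43.8 ± 6.88 at 6 months, 33.3 ± 6.10 in the 12-month controls and 36.3 ± 11.1 after canagliflozin (log2 difference with age -0.39, limma adjusted p = 0.292). Chrna2 measured 83.9 ± 51.0, 74.8 ± 49.3 and 57.7 ± 23.9 (age, limma adjusted p = 0.827), and Chrnb1, of the muscle receptor, 84.8 ± 34.2, 77.0 ± 23.7 and 102 ± 20.4 (0.819). Per kilobase of merged exons the 6-month level of Chrna4 (60.0) was the highest of these subunits, ahead of Chrnb1 (33.5), Chrna2 (22.2) and Chrnb2 (5.23). Chrna7, Chrnb4, Chrnd, Chrne and Chrng lay below the filter.

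Of 8 tested genes that assemble or modulate nicotinic receptors, 3 fell with age and 0 rose (37.5% called, against 12.4% of all genes, or 7.01% lower), with a list median of -0.04. With 8 genes and a median near 0, nothing is read from that share about the list. Lynx1, a membrane-anchored protein that dampens these receptors, measured 308, 575, 855, 301 and 289 at 6 months and 158, 208, 110, 196 and 164 in the 12-month controls. All 6-month libraries were above all 12-month ones, and the fall was 2.57-fold (log2 difference -1.36, SE 0.26, limma adjusted p = 0.00388). Tmem35a, a chaperone of nicotinic receptor assembly, measured 545, 994, 1386, 529 and 554 at 6 months and 381, 388, 349, 374 and 359 in the 12-month controls. The groups did not overlap, and the log2 difference was -0.996 (SE 0.26, limma adjusted p = 0.0190). Ly6e, a protein of the Lynx1 family, went from 2878 ± 800 to 1797 ± 550 (log2 difference -0.69, limma adjusted p = 0.0472), with overlapping groups. After canagliflozin Ly6e measured 2235 ± 501 and was not called against 6 months (log2 difference -0.35, limma adjusted p = 0.237). In that comparison Lynx1 and Tmem35a were called lower (limma adjusted p = 0.000674 and 0.00228).

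The highest Lynx1 and Tmem35a were in replicates 2 and 3 of the 6-month controls, the libraries with Cyp11b1 reads. Without them Lynx1 remained called (299 ± 9.91, n = 3, log2 difference -0.87, limma adjusted p = 0.0152), while Tmem35a (543 ± 12.7, -0.55, adjusted p = 0.117) and Ly6e (-0.49, adjusted p = 0.241) did not. Tmem35a was also not called without replicate 2 alone (adjusted p = 0.0547). Ly6e lost its call in 9 of 15 fits without 1 library, without replicates 1, 2 or 5 of canagliflozin, 2, 3 or 4 of the 12-month controls, or 2, 3 or 5 of the 6-month controls (adjusted p up to 0.115). It also lost the call with no filter (0.0582), with edgeR (0.0549), with only the groups compared (0.0615) and with the replicate block (0.0577). Within groups Tmem35a had r = 0.52 with Chrna4, 0.49 with Gpr37 and -0.15 with Atp2b3, and Lynx1 had 0.22, 0.40 and 0.04 (deviations from group means, n = 15, as a description).

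**Figure D3:**
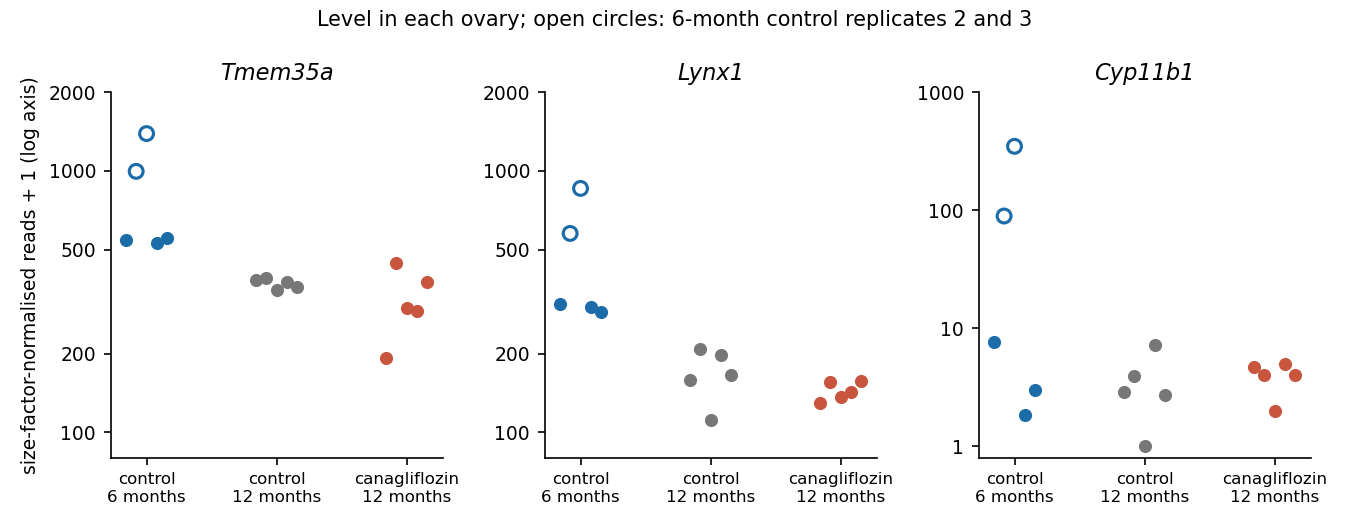
Size-factor-normalised reads plus 1 (log axes, which differ between panels) of Tmem35a, Lynx1 and the adrenal cortex gene Cyp11b1 in each ovary, by group. Open circles are replicates 2 and 3 of the 6-month controls, which are highest in all 3 panels, and the other 6-month libraries also lie above the 12-month controls for Tmem35a and Lynx1.

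No tested gene of acetylcholine handling or of the muscarinic receptors was called with age (2 of each), against 12.4% of all genes. Bche, which breaks down choline esters, measured 142 ± 21.7, 182 ± 9.96 and 161 ± 58.3 in the 6-month controls, 12-month controls and canagliflozin mice, and Slc5a7, the choline transporter, 32.6 ± 7.22, 31.9 ± 15.5 and 18.5 ± 12.1. The muscarinic receptor Chrm4 measured 87.3 ± 20.2, 71.3 ± 18.0 and 69.1 ± 36.8.

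Of the other plasma membrane calcium pumps in the table, none was called lower with age, against 7.01% of all genes tested. Atp2b1 rose with age, from 697 ± 103 to 889 ± 90.4, and measured 930 ± 37.6 after canagliflozin (log2 difference with age 0.36, SE 0.10, limma adjusted p = 0.0256). Atp2b4 measured 902 ± 86.1, 900 ± 126 and 938 ± 149 (log2 difference with age -0.01, limma adjusted p = 0.976), and Atp2b2 lay below the filter. Per kilobase of merged exons at 6 months, Atp2b3 (42.3) was near Atp2b1 (45.8) and below Atp2b4 (73.6). Of the pumps that fill the endoplasmic reticulum, Atp2a3 fell from 291 ± 70.7 to 172 ± 38.1 (log2 difference -0.74, limma adjusted p = 0.0182), and Atp2a2 went from 3250 ± 309 to 2723 ± 460 without being called (adjusted p = 0.145). Whether Atp2b1 and Atp2b3 differ in their change was not tested. The Atp2b1 call was lost in 5 of 15 fits without 1 library, without replicate 1 or 4 of the 12-month controls or 1, 2 or 3 of the 6-month controls (limma adjusted p = 0.0568 to 0.0712), and without both Cyp11b1 libraries (0.163). Atp2a3 stayed called in all of these fits.

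None of 7 tested sodium-calcium exchangers was called with age, against 12.4% of all genes tested. Slc8a1, the main exchanger, measured 289 ± 26.1, 307 ± 42.7 and 245 ± 51.0. Slc8a2, another exchanger of the plasma membrane, named here after its values were seen, was close to the threshold. It measured 37.0, 71.8, 57.5, 33.9 and 42.6 at 6 months, 21.0, 25.2, 11.01, 20.5 and 30.4 in the 12-month controls, and 14.6, 7.45, 6.91, 24.8 and 23.02 after canagliflozin. Every 6-month library was above every 12-month one, with replicates 2 and 3 again the highest. The log2 difference was -1.14 with age (SE 0.36, limma adjusted p = 0.0509) and -1.71 for canagliflozin against 6 months (adjusted p = 0.00276). For canagliflozin against 6 months, 2 of the 7 exchangers were called lower and 0 higher (28.6%, against 28.4% of all genes). The other was Slc24a3 (log2 difference -0.996, limma adjusted p = 0.00514). Nptn and Bsg, which encode membrane partners of the pumps, were not called either, with log2 differences with age of -0.32 and 0.06 (limma adjusted p = 0.157 and 0.743).

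Around Gpr37, 1 of 7 tested genes was called with age (14.3%, against 12.4% of all genes, so near the background). Ednra, the endothelin A receptor, measured 838, 860, 775, 747 and 856 at 6 months and 582, 532, 419, 620 and 617 in the 12-month controls. The groups did not overlap, and the log2 difference was -0.57 (SE 0.15, limma adjusted p = 0.0231). This call was lost without replicate 3 of the 12-month controls or replicate 2 or 5 of the 6-month controls (limma adjusted p = 0.0515 to 0.0605), and without both Cyp11b1 libraries (0.1002). Ednrb, the endothelin B receptor, went from 274 ± 49.3 to 346 ± 113 (adjusted p = 0.521), and Ece1, which activates endothelin, from 3713 ± 301 to 2965 ± 170 (adjusted p = 0.0601). Psap, encoding prosaposin, measured 27932 ± 2584, 26456 ± 7841 and 26549 ± 4604 (adjusted p = 0.705). Gpr37l1, the closest relative of Gpr37, lay below the filter, with a mean of at most 1.51 in any group.

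**Figure D4:**
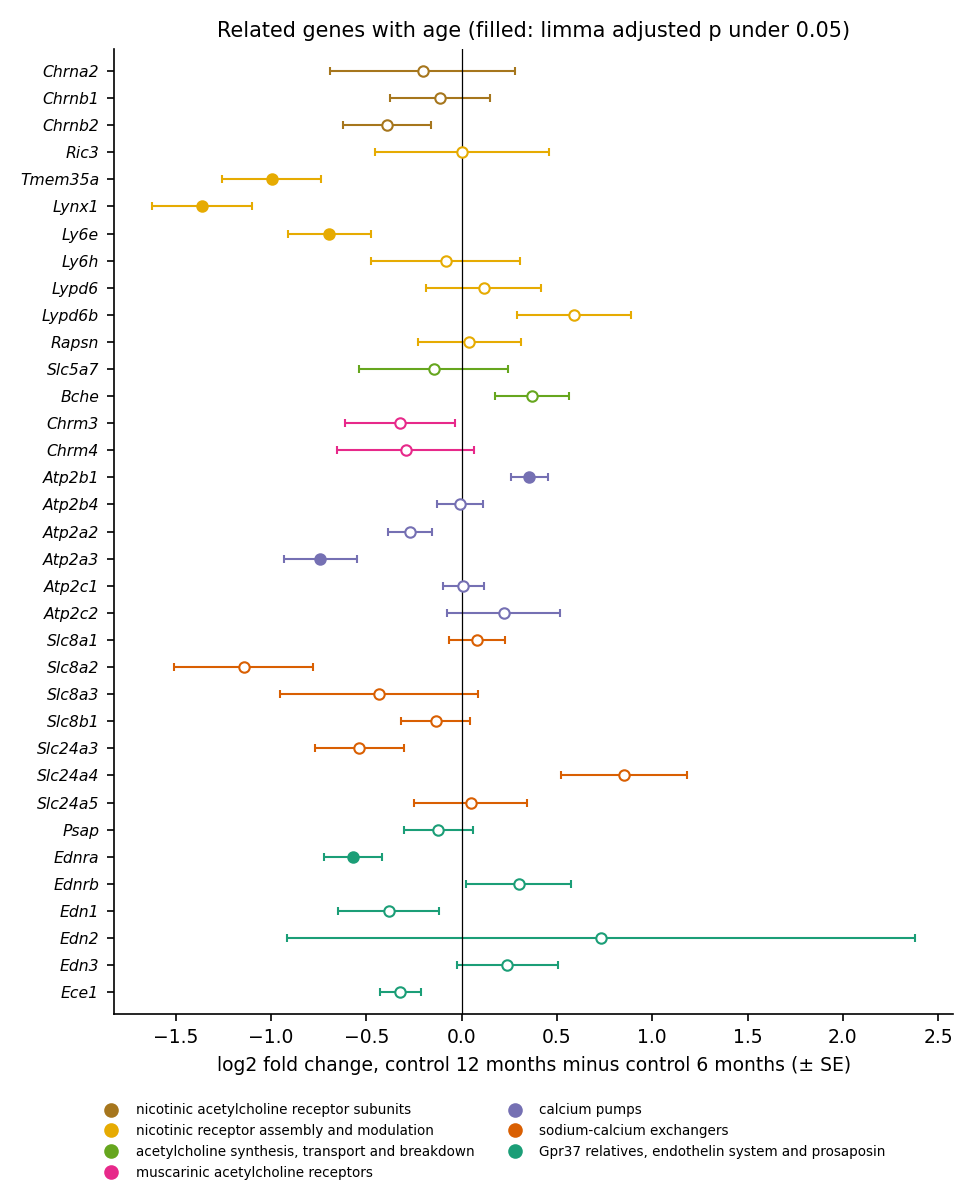
Log2 difference of 12-month from 6-month controls, with its SE, for the tested related genes other than the list of pump partners, coloured by list and filled where the limma adjusted p was under 0.05. The 6 filled points are Tmem35a, Lynx1, Ly6e, Atp2a3 and Ednra below 0 and Atp2b1 above 0.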

How the data were processed

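Gene expression was sequenced from polyadenylated RNA of 15 ovaries with a directional kit, per the labels' protocols. The submitters' processing notes list Partek 11.0 and build mm39, with no further detail. The way reads were aligned, counted and normalized is not given in the sources used here. The deposited signal behaves, by its values, as read counts that the authors scaled by a single factor for each library. Whole reads were recovered (100% of values whole within 0.1 read), although in 3 libraries (canagliflozin replicates 4 and 5, 6-month control replicate 5) the step per read was within 1% of 1. The read depth written in the labels is far below the recovered totals, which was not resolved. Replicates of a group all differed from each other by more than counting noise.

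The 3 genes and all lists were chosen with earlier results of these data known. Genes reaching 10 in 5 or more libraries (17569 kept, 7087 removed) were fitted with limma 3.58.1 (R 4.3.3; trend, robust) on log2(value + 1), all 15 libraries in 1 fit, with a call at a Benjamini-Hochberg adjusted p under 0.05. The test was also run on simulated reads with planted changes larger than the drug estimates, and the outcome is not reported here. That run does not show what the test would find at the size of the drug estimates. Single values were compared by exact two-sided permutation over 252 arrangements (SciPy 1.17.1, Python 3.11.15). Called related genes and the up to 4 most abundant of each list are named, with the genes most alike by Pearson r. Part of the list of pump partners is counted but not reported here by name. On recovered reads, edgeR 4.0.16 called 9, 2224 and 5174 genes (drug, age, canagliflozin against 6 months) and DESeq2 1.42.0 called 63, 2960 and 5769, against 1, 2179 and 4982 by limma. Other settings were pseudocounts, filters, TMM scaling, only the groups compared, a replicate block and each library left out, and, added after seeing the data, both Cyp11b1 libraries left out. Exon lengths are from GENCODE M21 (build GRCm38), whose build differs from the authors' mm39, and promoters are from RefSeq.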

Additional observations from a re-analysis of the deposited data

Results flagged for a closer look

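Among 93 checks of a named gene in a group of 5 libraries, 4 had a library far from the other 4, and chance gives about 1 in 20. None concerned Chrna4, Atp2b3 or Gpr37. Atp2c1, a calcium pump of the Golgi, was highest in 6-month control replicate 4 at 830, with the others at 654 to 689. Bsg was highest in 12-month control replicate 3 at 6651, with the others at 5048 to 5385. The muscarinic receptor Chrm3 was lowest in 6-month control replicate 5 at 17.8, with the others at 27.3 to 29.7, and lowest in 12-month control replicate 1 at 8.59, with the others at 22.3 to 26.9.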

How the results depend on the processing

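For Chrna4, Atp2b3 and Gpr37 all 25 alternatives kept the direction in each of the 3 comparisons, and none called the drug difference. Without 1 library the age estimates ran from -2.19 to -1.98, -2.04 to -1.63 and -1.99 to -1.55, and the drug estimates from -0.88 to -0.54, -0.68 to -0.20 and -0.99 to -0.62. Same-numbered libraries did not deviate together (r -0.30 to 0.25 over 15 pairs, 3 above 0.1). With a replicate block the limma adjusted p of the drug difference was 0.299, 0.608 and 0.502, and 5 related genes were called with age, against 6. That count ran from 2 to 8 without 1 library, with 2 without 6-month control replicate 2, and was 2 without both Cyp11b1 libraries (n = 3 at 6 months), and the cause was not tested. It was 8 by DESeq2. The correlation of Chrna4 and Atp2b3, 0.82 over all libraries, was -0.20 with group means removed. With 18 to 105 reads per 12-month library, counting noise limits the precision at that age.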
